A study of Mus musculus with 8 samples.

Results

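Among the transcripts on the array were 4429 whose names on it give no gene, only a genomic range and a strand, such as chr5:23195569-23218551 with an R for the reverse strand. They were taken as every non-control probe target whose systematic name starts with chr, holds a coordinate range and ends in _F or _R, without those on the sex chromosomes, and they made up 11.7% of the 37850 distinct names on the array. A further 178 such names on the X chromosome were left out. The coordinates are those of the mouse build mm9, per the file headers. The files give no gene, exon or intron for these ranges, none of the names matched an entry of the RefSeq table, and the position of gene probes in mm9 was not analysed here. Whether each range lies between genes was therefore not checked, and the targets are called coordinate-named regions below.

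RNA came from GFP-positive ureteric bud (UB) cells, the epithelium that branches into the collecting ducts, sorted by flow cytometry from kidneys of C57BL/6 mice on postnatal day 0. The 4 wildtype samples (WT 1 to WT 4, genotype "control") were set against 4 samples in which Dot1 was deleted conditionally in Hoxb7-positive cells (KO 1 to KO 4). The labels name no Cre or GFP allele, do not say whether the WT mice carried them, and give no animal or litter per sample, so p-values reflect only how far these samples spread, which may be technical. On each of the 8 2-colour arrays the named sample was labelled with Cy5 and WT 3 RNA with Cy3, so that the array of WT 3 set one RNA against itself, and no dyes were swapped. The log2 ratio of Cy5 to Cy3 is the value given for each array below, and the difference of the group means is given as KO minus WT.

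Long noncoding transcripts are made by RNA polymerase II, often at low levels and in few cell types, and many are degraded in the nucleus by the RNA exosome. They are commonly catalogued by the stretch of chromatin or of tiled signal in which transcription was seen, which is why a range can be far longer than a transcript and why one range can be probed on both strands. DOT1L is the methyltransferase of histone H3 lysine 79, a mark found over the bodies of transcribed genes.

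KO 2 and KO 3 stood apart from the other KO arrays. The array of KO 3 was bright in both channels, with 2306 of its region spots marked as outliers by the scanner software against 3 on KO 2 and 0 on the others. The array labelled KO 2 resembled the WT arrays: over the 2405 regions with a value on every array its log ratios correlated with those of the WT arrays at r of 0.56 to 0.69 and with the other KO arrays at 0.21 to 0.25. KO 1, KO 3 and KO 4 correlated with each other at 0.69 to 0.80, and with the WT arrays at 0.13 to 0.20, while the WT arrays correlated among themselves at 0.59 to 0.71. All of these points share the reference RNA and the dye orientation, and the values are a description. Dot1l itself, by 1 probe, stood at 0.03, -0.05, -0.11 and 0.07 in WT 1 to WT 4 and at 0.35, 0.03, -0.04 and 0.30 in KO 1 to KO 4, a difference of 0.18 ± 0.11 (SE, n = 4 arrays a group, limma's Benjamini-Hochberg adjusted p = 0.332). The files do not place this probe inside or outside the deleted part of the gene, so it checks no label. The KO arrays filled one slide row and the WT arrays the next, so row and genotype cannot be told apart. Of 19 UB and collecting duct markers, 19 were above background on every WT array, as were 5 of 5 nephron progenitor, 5 of 7 stromal, 6 of 6 endothelial, 4 of 4 macrophage and leukocyte, 3 of 4 erythroid, 4 of 4 podocyte and 4 of 4 proximal tubule markers that the array held. The summed Cy5 signal of the UB markers ran from 70820 to 98123 on the WT arrays and 90943 to 107858 on the KO arrays, and that of the nephron progenitor markers from 11765 to 21632 and from 10973 to 15718. The median differences of these lists were -0.21 and -0.69, with 6 of the 19 UB and 1 of the 5 nephron progenitor markers above 0. The other medians were -0.38 for stroma, 0.09 for endothelium, -0.12 for macrophages and leukocytes, 0.03 for erythroid, -0.14 for podocyte and -0.17 for proximal tubule markers. The part of these cell types in the region values was not tested, and fewer cells of a type and less RNA per cell cannot be told apart.

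The regions were spread over all 19 autosomes, from 99 on chromosome 19 to 352 on chromosome 1, with 2231 on the forward and 2198 on the reverse strand. They form 3387 ranges, of which 1042 were probed on both strands and 2345 on 1 strand, and many overlap, so that merging them regardless of strand leaves 2123 loci. Neighbouring and overlapping regions are thus not independent measurements. The median length was 10745 bases, with quartiles of 1791 and 25940 bases. The shortest, chr10:83399729-83399790 and chr5:113769776-113769837, both forward, span 62 bases, about that of a probe, while the longest, chr7:39351858-46480344 reverse, spans 7128487 bases with a single probe. In all 15604 probes served the regions, 1 to 10 each with a median of 3, and 660 regions rested on 1 probe.

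In the WT samples 28.4% to 33.6% of the region probes gave a Cy5 signal well above background (the scanner software's flag). The shares were 33.6%, 29.3%, 30.5% and 28.4% of probes on WT 1 to WT 4, and 40.6%, 52.7%, 93.6% and 43.5% on KO 1 to KO 4. The groups did not overlap, with means of 30.4% ± 2.26 (SD, n = 4) for WT and 57.6% ± 24.6 (SD, n = 4) for KO, or 45.6% for KO without KO 3. On WT arrays the probes of RefSeq protein-coding transcripts (names in NM_) were above background at 70.7% to 73.5%, and those of RefSeq noncoding transcripts (NR_) at 37.1% to 41.3%.

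The Cy3 channel held WT 3 RNA on every array and gives the same share with one RNA throughout. There, 19.3% to 20.4% of region probes were above background on the WT arrays, and 20.9%, 23.0%, 79.8% and 20.1% on KO 1 to KO 4. KO 3 thus stood far above the other arrays with the reference RNA too. On KO 1, KO 2 and KO 4 the reference channel stayed within 3 percentage points or so of the WT arrays, while their Cy5 share lay above every WT array. The shares of NR_ probes moved in the same order as those of the regions, at 44.9%, 55.8%, 92.8% and 47.5% in Cy5 on KO 1 to KO 4, and NM_ probes too, at 73.6%, 81.1%, 96.4% and 74.99%. The part of array brightness in these shares was not tested.

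**Figure D1:**
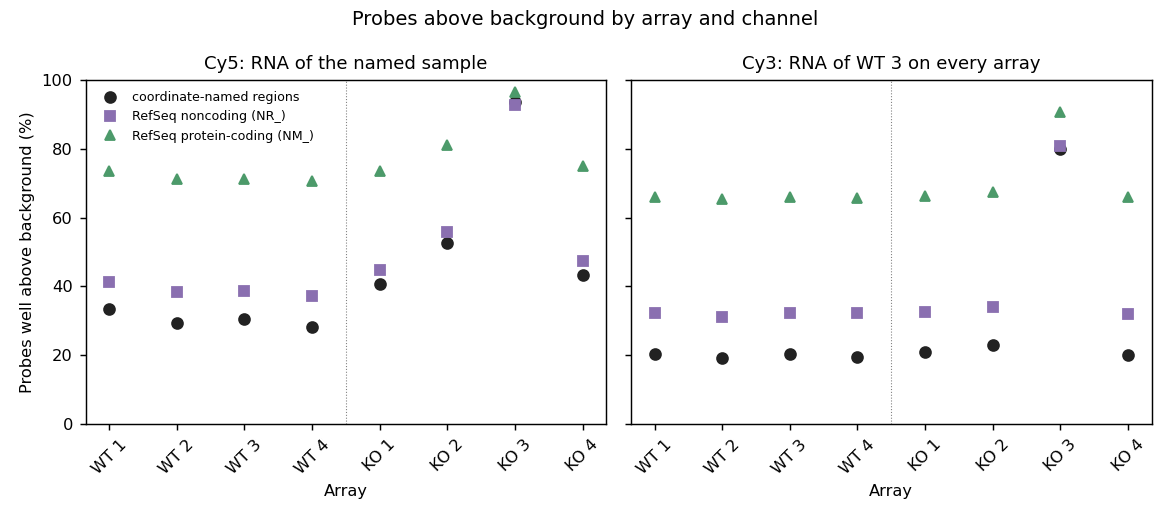
Share of probes flagged well above background (y axis, percent) on each of the 8 arrays (x axis), in the Cy5 channel at left and the Cy3 channel at right, for coordinate-named regions (circles), RefSeq noncoding (squares) and RefSeq protein-coding probes (triangles). Region probes lie at 28.4% to 33.6% on the WT arrays in Cy5, and KO 3 stands apart in both channels, at 93.6% in Cy5 and 79.8% in Cy3.

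Counted by region, with 1 probe above background being enough, 55.4%, 50.03%, 51.7% and 49.1% of the 4429 were seen on WT 1 to WT 4 and 62.1%, 80.3%, 98.4% and 67.4% on KO 1 to KO 4. A region with more probes has more chances to be counted: 33.4% of regions with 1 probe and 78.5% of those with 6 to 10 probes were above background on the average WT array. A core of 1969 regions (44.5%) was above background on all 8 arrays, and 52 regions were on none. On no WT array were 1783 (40.3%). Of these, 553 were above background on KO 3 alone and 599 on KO 2 and KO 3 alone, so that most of the apparent gain in KO samples came from those 2 arrays. In 190 regions the signal was above background on all 4 KO arrays and on no WT array, and there was no region of the opposite kind. The larger share above background on every KO array, which NM_ and NR_ probes also showed, favours the first kind in advance. The same count over all transcripts is not given here, so the 190 are not read as particular to the regions.

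Detection varied by chromosome and little by strand. On the average WT array 28.5% of forward and 32.4% of reverse probes were above background. The shares of probes by chromosome ran from 22.9% on chromosome 9 to 39.1% on chromosome 19, the chromosome with the fewest regions, with 37.1% on chromosome 5 and 36.7% on chromosome 14. Counted by region the order changed, from 44.2% on chromosome 18 to 64.2% on chromosome 14, with 49.4% on chromosome 9. By length, 43.6% of the short regions (62 to 5176 bases), 54.6% of the middle ones (5201 to 18641 bases) and 56.5% of the long ones (18645 bases or more), groups of about equal number, were seen. By probe they differed less, at 29.1%, 32.0% and 29.9%, the longer regions having more probes.

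For the comparison of KO with WT, a probe entered if the scanner software's flag was set in Cy5 for 4 or more of the 8 arrays and each group kept 3 or more unmarked values. This left 5803 probes of 2634 regions (59.5%). The other 1795 regions were not tested. The rule lets in a region through the group in which it is high, and 148 tested regions had no passing probe above background on any WT array, so counts over tested regions are not counts over all 4429.

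No coordinate-named region passed the threshold of 0.05 on the adjusted p of limma, where 1 of all 23962 tested transcripts did (0.00417%). The lowest adjusted p among the regions was 0.101. At an unadjusted p under 0.05 there were 257 regions higher in KO and 259 lower, 9.76% and 9.83% of those tested, against 9.54% and 13.8% over all transcripts. The regions' median difference was 0.01 on the log2 scale, with 1408 above 0 and 1226 below, beside a median of -0.03 over all transcripts and -0.04 over NM_ names. At least 2-fold higher in KO were 16 regions and 0 were as much lower, where 245 and 32 of all 23962 transcripts were. The 16 depend on the arrays and the background correction: 8 were that much higher without KO 4 and 34 without KO 2, and with normexp offset 0 there were 66 higher and 11 lower, with the scanner's own ratio 205 and 59. Of all 23962 transcripts, 99 were that much higher without KO 4 and 498 without KO 2. With normexp offset 0, 554 were higher and 123 lower, and with the scanner's ratio 1021 and 462. The regions' share of 2-fold rises thus lay below that of all transcripts in the main fit and above it with the scanner's ratio. Over all 4429 regions, with no filter on dim probes, the median was also 0.01 and 0 passed in limma, beside 0.00793% of all transcripts. There, 271 regions were higher and 212 lower at an unadjusted p under 0.05, beside 7.17% and 10.0% of all transcripts.

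In 82 of the 2405 regions with 8 values every KO array lay above every WT array, and in 198 every KO array lay below. Over all transcripts with 8 values 3.49% were separated upwards and 7.94% downwards, so the regions' 3.41% and 8.23% were near that background. These counts moved with the normalisation: with each array centred on its median instead of loess they were 52 and 449, where all transcripts gave 0.817% and 24.9% and their median moved from -0.03 to -0.29. The balance of higher and lower regions therefore depends on the scaling, and the differences below are relative to the loess line of each array.

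The arrays differed less in the middle of the regions' log ratios than in their width. The medians were 0.04, 0.04, 0.06 and 0.04 on WT 1 to WT 4 and 0.08, 0.01, 0.03 and 0.08 on KO 1 to KO 4. The interquartile ranges were 0.18, 0.19, 0.18 and 0.19 on the WT arrays, and 0.33, 0.19, 0.27 and 0.35 on the KO arrays, so that KO 2 had the width of a WT array and the other 3 KO arrays were wider. At least 2-fold away from the mean of the WT arrays (of the other 3, for a WT array) were 1, 0, 1 and 2 regions on WT 1 to WT 4 and 68, 1, 19 and 77 on KO 1 to KO 4. On the KO arrays that is 2.58%, 0.038%, 0.79% and 2.92% of the regions, below the 3.38%, 0.321%, 1.88% and 3.89% of all transcripts on each of those arrays.

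**Figure D2:**
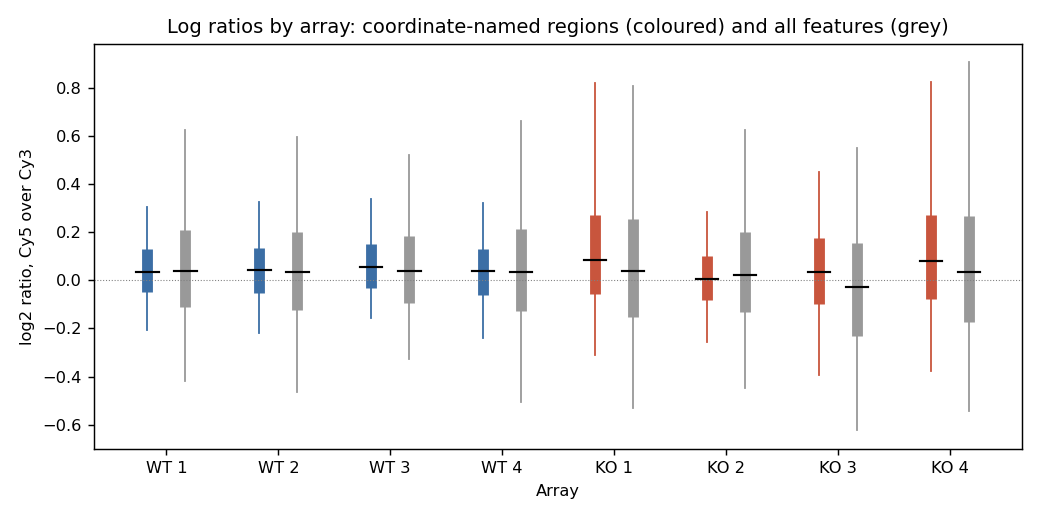
Log2 ratio of Cy5 to Cy3 (y axis) by array (x axis) for the tested coordinate-named regions (blue for WT, red for KO) and for all tested transcripts (grey). The thick bar spans the quartiles, the thin line the 5th to 95th percentiles and the black mark is the median; the regions' quartiles are 0.18 to 0.19 apart on the WT arrays and on KO 2, and 0.27 to 0.35 apart on KO 1, KO 3 and KO 4.

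The lowest p among regions higher in KO belonged to chr5:23195569-23218551 on the reverse strand, 22983 bases long. It stood at -0.49, -0.49, 0.16 and -0.71 in WT 1 to WT 4 and at 0.90, 0.57, 0.68 and 0.80 in KO 1 to KO 4. All 4 KO arrays, KO 2 included, lay above all WT arrays, and WT 3 lay above the other WT arrays. The difference was 1.12 ± 0.17 (SE), a 2.17-fold higher mean ratio, with limma's adjusted p = 0.101. Its 6 passing probes did not move as one: 4 gave differences of 1.24 to 2.76, 1 gave -0.02 and 1 gave -0.37. In the probe with the largest, WT 1, WT 2 and WT 4 stood at -2.06, -2.01 and -1.93, while WT 3 stood at 0.67 and the KO arrays at 1.18 to 1.69, so on this probe WT 3 was nearer to the KO arrays than to the other WT arrays. The forward strand of the same range, by 1 probe, gave -0.13 ± 0.13 (adjusted p = 0.583) and its KO arrays overlapped the WT arrays.

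On chromosome 6, neighbouring reverse-strand regions 35870 bases apart both had KO arrays above all WT arrays. The shorter, chr6:31078802-31079644, stood at -0.06, -0.07, -0.15 and 0.01 in WT 1 to WT 4 and at 0.88, 0.11, 0.47 and 0.92 in KO 1 to KO 4, a difference of 0.66 ± 0.17 (SE, limma's adjusted p = 0.117). The longer, chr6:31115515-31168433, stood at 0.05, 0.01, -0.02 and 0.01 in the WT arrays and at 0.69, 0.17, 0.40 and 0.75 in the KO arrays, a difference of 0.49 ± 0.13 (adjusted p = 0.117). In both, all 3 passing probes lay above 0, and KO 2 was the KO array nearest to WT. The longer region was above background on 2 WT and 4 KO arrays, its probes on 4, 5 and 6 of the 8 arrays. A probe of the shorter region was above background on 4. Such dim probes can pass the filter through the KO arrays, where they are high, so their shared direction is a description. A forward-strand region across both, chr6:31017987-31174287, gave -0.15 ± 0.08 (adjusted p = 0.307), and the next reverse-strand region measured, chr6:31007184-31007725, gave 0.29 ± 0.10 (adjusted p = 0.15) with overlapping arrays.

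The other 5 regions of smallest p without overlap had differences of 0.32 to 0.88, each with an adjusted p of 0.117. On chr9:88437245-88465751 forward, by 1 probe, the WT arrays stood at -0.29, -0.31, -0.09 and 0.14 and the KO arrays at 1.31, 0.22, 0.54 and 0.88. On chr17:56687541-56694616 reverse all 5 passing probes lay above 0, with WT arrays at 0.34, -0.05, 0.14 and 0.31 and KO arrays at 0.94, 0.50, 0.58 and 0.70. The KO 2 value exceeded the highest WT value there by less than the WT arrays differed among themselves. The reverse strand of a range with the same start, chr17:56687541-56694631, gave -0.05 with overlapping arrays. The 5 probes of chr5:22058025-22072475 forward gave 0.32 to 0.45, a mean of 0.39 ± 0.10, and the 3 of chr5:111565658-111566257 forward gave 0.37 to 0.58, a mean of 0.50 ± 0.13. In chr13:44217172-44224947 reverse the signal was on no WT array above background.

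For such a region a fold of the Cy5 signal is given as a bound. It takes the mean log2 Cy5 signal of the KO arrays over the dimmest signal that counted as above background on each WT array. The probe's own signal is used where higher. For chr13:44217172-44224947 reverse the KO mean of 7.47 against a measured WT mean of 6.26 was at least 2.21-fold higher in Cy5. The ratio to Cy3 gave 0.32 ± 0.08 (SE, limma's adjusted p = 0.117), which is 1.25-fold. The Cy5 bound is therefore not a bound on the change in ratio. The region passed the filter on dim probes only through the KO arrays, where it is high, so its place among the higher regions is a description. The bound rests on the Cy5 channel alone, in which KO 3 was bright. Being above background on the KO arrays and on no WT array favours a higher Cy5 signal in KO in advance. The bound therefore describes the size of the gap and is no evidence of one.

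Among regions lower in KO, the smallest p values belonged to chr4:119967625-119978325 forward and chr6:90915489-90940052 forward, each by 1 passing probe. The first stood at 0.23, 0.21, 0.25 and 0.18 in WT 1 to WT 4 and at -0.28, -0.10, -0.46 and -0.25 in KO 1 to KO 4, a difference of -0.49 ± 0.09 (SE, limma's adjusted p = 0.111). The second stood at 0.06, 0.15, 0.27 and 0.14 in the WT arrays and at -0.26, -0.21, -0.25 and -0.30 in the KO arrays, a difference of -0.41 ± 0.07 (adjusted p = 0.111). In the second KO 2 lay close to the other KO arrays. On the reverse strand, chr4:119967625-119978325 gave -0.09 ± 0.10 with overlapping arrays, whereas chr6:90915489-90940052 gave -0.45 ± 0.10 without overlap (adjusted p = 0.116).

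The largest of these 8 differences was on chr12:77550684-77551505 forward, 822 bases long and measured by 1 probe. Its WT arrays stood at 0.27, 0.30, -0.05 and -0.08 and its KO arrays at -0.40, -1.04, -0.45 and -0.90, with KO 2 the lowest of all 8, a difference of -0.81 ± 0.17 (SE, limma's adjusted p = 0.112). A longer range that contains it, chr12:77544397-77564122, gave -0.19 forward and 0.25 reverse, with overlapping arrays on both strands. Another of the 8 regions, chr8:74820025-74833350 forward, had WT arrays at 0.31, 0.54, 0.23 and 0.42 and KO arrays at -0.09, -0.09, -0.54 and -0.39, a difference of -0.65 ± 0.12 (adjusted p = 0.111) with both probes below 0. On chr2:152172745-152184745 reverse 3 of 3 probes lay below 0, at -0.59 to -0.56. In chr1:173468300-173489200 reverse, chr12:73789535-73799787 forward and chr15:23415775-23436200 reverse the differences were -0.80, -0.42 and -0.59 by 1 probe each, and in all of them KO 2 was the KO array nearest to WT.

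**Figure D3:**
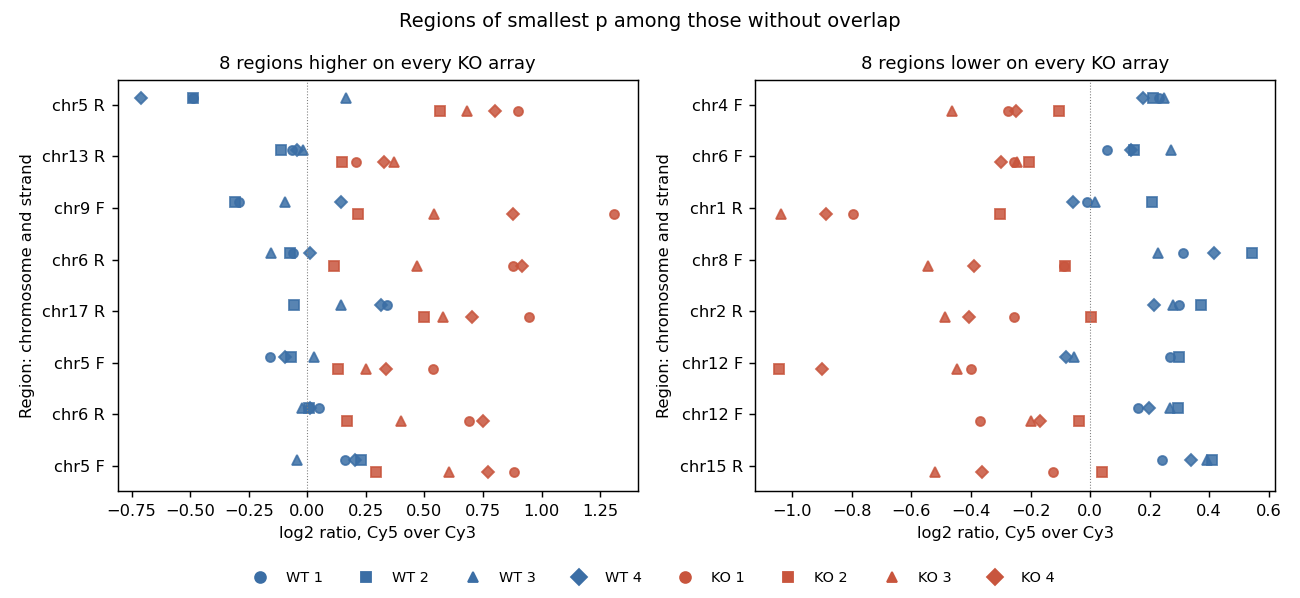
Log2 ratio of Cy5 to Cy3 (x axis) on each array for the 8 coordinate-named regions of smallest p in each direction among those whose KO (red) and WT (blue) arrays do not overlap, 1 row a region by chromosome and strand (F forward, R reverse), in order of p. KO 2 (red squares) is the KO array nearest to the WT arrays in most rows, and on chromosome 12 it is the lowest, at -1.04.

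Leaving out KO 2 changed the outcome of the test. With KO 1, KO 3 and KO 4 against the 4 WT arrays, 292 regions were higher and 181 lower at an adjusted p under 0.05 in limma, 473 of 2634 or 18.0%, where 9.17% of all transcripts were higher and 11.2% lower, 20.4% in all. Whatever their p, 34 of the 2634 regions were at least 2-fold higher and 4 as much lower, where 498 and 74 of all 23962 transcripts were. In 268 of the 473, KO 2 lay on the same side of the WT mean as the mean of the other KO arrays, and in the rest it did not. With array weights, which gave KO 2 a weight of 0.34 and KO 3 0.45 against 1.07 to 1.83 for the others, 454 regions passed beside 18.4% of all transcripts. Without KO 2 and KO 3, 588 passed beside 22.8%. Leaving out KO 3 alone gave 0 regions, beside 0.0334% of all transcripts, with 256 higher and 215 lower at an unadjusted p under 0.05 in limma, 9.72% and 8.16% of the regions beside 9.9% and 10.9% of all transcripts. Setting aside KO 2 was chosen with its likeness to WT arrays known, so these calls describe 3 arrays and do not replace the count of 0 with all 8.

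The largest difference of any region lay in a cluster on chromosome 19, where 7 tested regions fall within chr19:5771425-5848475. Whether these regions belong to genes already known by name was not checked, so they are not taken as unknown transcripts. On the reverse strand chr19:5834117-5835940 stood at -0.37, -0.51, 0.51 and -0.16 in WT 1 to WT 4 and at 4.24, -0.05, 3.28 and 4.28 in KO 1 to KO 4. KO 2 lay among the WT arrays and the other KO arrays far above them. The difference was 3.07 ± 0.84 with all arrays (SE, limma's adjusted p = 0.119) and 4.07 ± 0.30 without KO 2 (adjusted p = 0.000625), a 16.8-fold higher ratio, and all 3 probes gave 2.79 to 3.26 with all arrays.

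In the other reverse-strand regions of the cluster, too, KO 1, KO 3 and KO 4 lay above KO 2 and the WT arrays. On chr19:5801802-5802597 the WT arrays stood at -0.79, -0.79, 0.07 and -0.70 and the KO arrays at 2.03, -0.56, 1.66 and 1.99, 2.45 ± 0.21 without KO 2 (SE, limma's adjusted p = 0.000878). On chr19:5798135-5800557 they stood at -0.78, -0.73, -0.20 and -0.86 and at 1.25, -0.71, 1.23 and 1.69, 2.03 ± 0.18 without KO 2 (adjusted p = 0.000894). In both, WT 3, whose RNA is also the reference, was the highest WT array. The reverse strand of the whole range chr19:5771425-5848475, by 1 of its 2 probes, gave 1.69 ± 0.19 without KO 2.

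The forward strand of the cluster showed smaller differences in the same direction. The 10 probes of chr19:5771425-5848475 forward averaged 0.08, -0.08, 0.23 and -0.06 in the WT arrays and 0.89, -0.01, 0.50 and 0.87 in the KO arrays, 0.71 ± 0.12 without KO 2 (SE, limma's adjusted p = 0.00704). On chr19:5795690-5797464 forward the difference without KO 2 was 0.60 ± 0.10 (adjusted p = 0.00687), and on chr19:5841103-5845579 forward it was 0.21 ± 0.09 (adjusted p = 0.131). With all 8 arrays the adjusted p of these 7 regions ran from 0.119 to 0.542, and several of them overlap, so they are not 7 separate results.

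**Figure D4:**
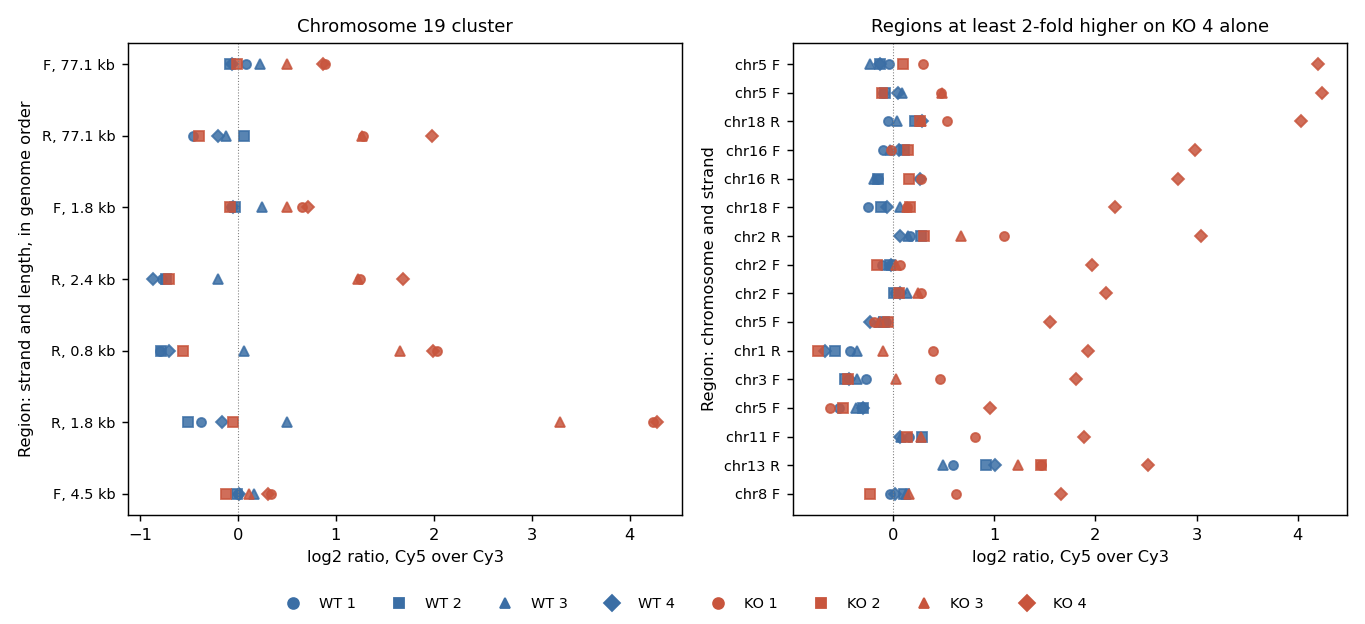
Log2 ratio of Cy5 to Cy3 (x axis) on each array for the 7 tested regions of the chromosome 19 cluster in genome order (left, rows by strand and length) and for the 16 regions at least 2-fold higher on KO 4 than on any other array (right, rows by chromosome and strand). At left KO 2 (red square) lies among or close to the WT arrays in each row while KO 1 and KO 4 reach 4.24 and 4.28 in one of them; at right KO 4 (red diamond) stands alone, up to 4.24.

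Outside chromosome 19, the largest rises among regions past the threshold without KO 2 were chr4:33375464-33377138 reverse and chr17:88225376-88238756 forward, by 1 probe each. The first stood at -0.92, -0.79, -0.62 and -0.74 in the WT arrays and at 1.30, -0.83, 1.04 and 2.22 in the KO arrays, 2.29 ± 0.24 without KO 2 (SE, limma's adjusted p = 0.00188). The second stood at -0.77, -0.80, -0.42 and -0.87 and at 1.27, -0.72, 0.98 and 2.20, 2.20 ± 0.26 without KO 2 (adjusted p = 0.00251). The same arrays were thus high in both, with KO 4 the highest and KO 2 among the WT arrays. The reverse strand of the chromosome 17 range went the other way, at -0.67 without KO 2 (adjusted p = 0.005).

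The largest falls without KO 2 were about 2-fold. On chr15:78404840-78412046 reverse the WT arrays stood at 0.14, 0.24, 0.29 and 0.12 and the KO arrays at -0.81, -0.01, -1.10 and -0.98, -1.16 ± 0.09 without KO 2 (SE, limma's adjusted p = 0.000788). On chr4:94742359-94822969 forward they stood at -0.15, -0.05, 0.02 and -0.14 and at -0.99, -0.11, -1.29 and -1.32, -1.12 ± 0.10 without KO 2 (adjusted p = 0.00102). KO 2 lay below every WT array in the first and among them in the second. On chr13:22110479-22116629 reverse the KO arrays were uneven, at -0.20, 0.07, -0.996 and -1.21, and on chr6:39205913-39248468 reverse the difference without KO 2 was -1.01 ± 0.16 (adjusted p = 0.0051).

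Of the 190 regions above background on all KO arrays and no WT array, 145 were tested, and 129 of them had a difference above 0 and 16 below, with a median of 0.10; the rule that made this group is a difference of signal, so the sign carries no weight. The 5 with the largest differences were uneven among the KO arrays. On chr5:14943275-14944205 forward the WT arrays stood at -0.03, -0.13, -0.22 and -0.13, KO 1 and KO 2 at 0.30 and 0.10, and KO 4 at 4.20, with KO 3 marked and left out. The Cy5 bound was at least 3.88-fold, from a KO mean of 8.27 against a measured WT mean of 6.28, while the fit gave 1.66 ± 0.87 (SE, limma's adjusted p = 0.281), a mean carried by KO 4. On chr13:27124478-27124684 forward KO 1 and KO 4 stood at 0.63 and 0.92 and KO 2 at 0.06, with WT arrays at -0.26 to -0.02, 0.67 ± 0.18 (adjusted p = 0.122) and at least 2.18-fold in Cy5. The Cy5 bounds were at least 3.16-fold for chr16:3337275-3355950 forward, 2.29-fold for chr18:3003075-3016150 forward and 1.52-fold for chr11:95657291-95657772 reverse. Their ratios to Cy3 gave 2.04-fold, 1.68-fold and 1.33-fold, with adjusted p in limma of 0.357, 0.303 and 0.228. In all 5 the ratio gave a lower fold than the Cy5 bound, so the bounds hold for the Cy5 signal and not for the ratio. The rule that made the group favours a higher Cy5 signal in KO in advance, so the bounds are descriptions.

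KO 4 stood apart in a small set of regions. On that array 16 regions were at least 2-fold above every other array, against 1 on KO 3, 1 on WT 3 and 0 on each of the other 5. The same count over all transcripts is not given here, so the 16 are not read as particular to the regions. Over all transcripts, too, KO 4 had the largest share 2-fold away from the WT mean, 3.89% beside 2.92% of the regions. 10 of the 16 fell into 4 places: 3 within chr5:14943275-15170100, both strands of chr18:3003075-3016150, 2 on chromosome 16 between positions 3111550 and 3355950, and 3 in the range chr2:181650800-181669350. The other 6 were single regions on chromosomes 1, 3, 5, 8, 11 and 13. In 4 of the 16 the value of KO 3 was marked and left out. On chr5:14943275-14944205, chr16:3337275-3355950 and chr18:3003075-3016150, all forward, no WT array was above background. Those regions passed the filter on dim probes only through the KO arrays. On chr5:15146475-15170100 forward, by 3 probes, the WT arrays stood at -0.10, -0.08, 0.09 and 0.06 and the KO arrays at 0.48, -0.11, 0.48 and 4.24. On chr18:3003075-3016150 reverse the values were -0.05, 0.22, 0.04 and 0.29, then 0.53, 0.27, 0.28 and 4.03. On chr2:181650800-181669350 reverse they were 0.17, 0.28, 0.15 and 0.07, then 1.09, 0.31, 0.67 and 3.05, so that KO 1 and KO 3 there also lay above the WT arrays. The probe sequences are not used here, so whether probes of these places share sequence was not tested.

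The strands of one range were measured apart and often differed. Of 1042 ranges with both strands probed, 304 were above background on all 4 WT arrays on both strands, 296 on all WT arrays on one strand and no WT array on the other (131 forward, 165 reverse), and 150 on neither strand of any WT array. In 489 ranges both strands were tested, and their differences lay on the same side of 0 in 289 (59.1%) and on opposite sides in 200. Across these ranges the correlation of forward with reverse differences was 0.14, both strands being read on the same arrays, and the median gap between strands was 0.16 on the log2 scale. For scale, the median SE of a region's difference was 0.09.

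Among 416 ranges with 8 values on both strands, 2 had KO above WT without overlap on both strands, 4 had KO below on both, 2 had opposite directions, 96 had 1 separated strand and 312 none. Taken singly, 3.49% of all transcripts with 8 values were separated upwards and 7.94% downwards. Whether the counts of pairs differ from what those shares give was not tested. The ranges higher on both were chr17:56687541-56694616, at 0.24 forward and 0.49 reverse, and chr8:119732348-119749198, at 0.28 and 0.10. A range with the same start as the first, chr17:56687541-56694631, gave 0.07 forward and -0.05 reverse, with overlapping arrays on both strands. The ranges lower on both were chr6:90915489-90940052, at -0.41 and -0.45, chr9:14460976-14488051, at -0.49 and -0.16, chr14:44284425-44300475, at -0.36 and -0.12, and chr8:72663625-72673010, at -0.32 and -0.11. None of the strands higher on both or lower on both passed with all 8 arrays, with adjusted p in limma of 0.111 to 0.427.

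On the ranges of opposite direction both strands were separated. On chr4:138653689-138688814 the forward strand, by 4 probes, stood at -0.03, -0.01, 0.11 and -0.03 in the WT arrays and at -0.29, -0.10, -0.57 and -0.37 in the KO arrays. Its reverse strand, by 1 probe, stood at 0.04, -0.08, -0.04 and -0.23 and at 0.87, 0.09, 0.08 and 0.58, so that the differences were -0.34 ± 0.10 and 0.48 ± 0.17 (SE, limma's adjusted p = 0.129 and 0.153). On chr7:112934153-112943178, with 3 probes a strand, the forward strand gave -0.30 ± 0.08 (adjusted p = 0.117) and the reverse strand 0.29 ± 0.09 (adjusted p = 0.129). Its reverse strand stood at -0.01, -0.04, 0.10 and 0.03 in WT 1 to WT 4 and at 0.19, 0.21, 0.46 and 0.38 in KO 1 to KO 4. The difference between strands was not itself tested. On 2 further ranges of small p only the reverse strand, by 1 probe each, was separated: on chr3:38320928-38341869 it gave -0.50 ± 0.11 (adjusted p = 0.112) and the forward strand 0.01 ± 0.08 (adjusted p = 0.975), the latter turning sign under several settings. On chr10:72726649-72799726 the reverse strand gave -0.56 ± 0.12 (adjusted p = 0.112) and the forward strand -0.10 ± 0.09 (adjusted p = 0.508).

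**Figure D5:**
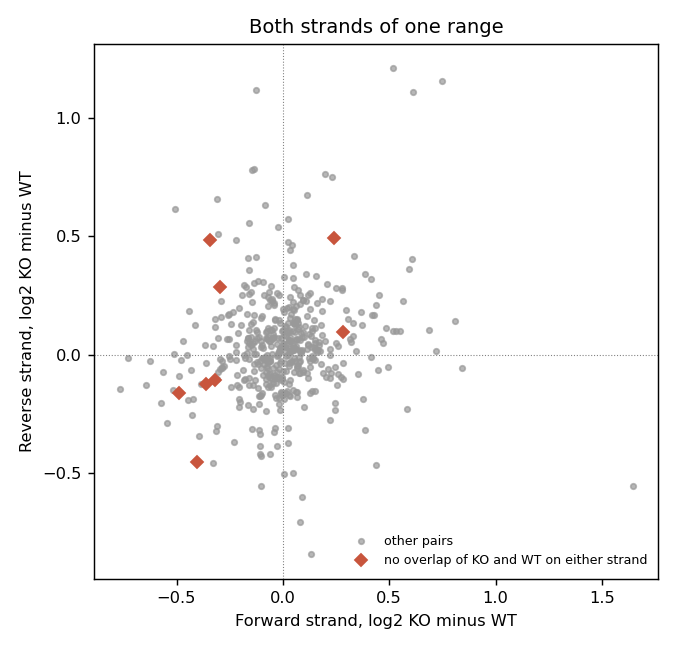
KO minus WT difference (log2) of the forward strand (x axis) against that of the reverse strand (y axis) for the 489 ranges with both strands tested, 1 point a range. Red diamonds mark the 8 ranges in which KO and WT arrays do not overlap on either strand, 2 of them on opposite sides of 0; the points spread along both axes with a correlation of 0.14.

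By strand over all tested regions the median difference was 0.00 forward and 0.02 reverse. Without overlap, 31 forward regions were higher and 116 lower of 1180, and 51 reverse regions were higher and 82 lower of 1225. All transcripts leaned to lower too, with 3.49% higher and 7.94% lower without overlap. The counts by strand, chromosome and length were not tested against those shares. By chromosome the medians ran from -0.03 on chromosome 11 to 0.06 on chromosome 3. The share of separated regions ran from 6.25% on chromosome 1 to 16.99% on chromosome 6, beside 11.4% over all transcripts. On chromosome 14 there were 0 higher and 16 lower of 116, and on chromosome 8 there were 11 higher and 9 lower of 161. By length, the medians were 0.05, 0.01 and -0.00 in the short, middle and long regions. Of 701 short regions 22 were higher without overlap and 31 lower, and of 861 long ones 24 and 88.

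Probes of one region agreed in part. In 892 regions with 3 or more passing probes, 462 (51.8%) had all probe differences on one side of 0, 288 above and 174 below, and the median SD between the probes of a region was 0.11. Across 1465 regions the differences of the first and next probe by name correlated at 0.64, both read on the same arrays. Among the separated regions with 3 or more passing probes, 86 of 123 had all probes on one side. The other 1169 and 573 tested regions rested on 1 and on 2 probes.

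The genes that turn over or terminate noncoding transcripts were measured on the same arrays. Of 17 tested genes of the nuclear RNA exosome and its adaptors, 0 passed the threshold in limma with all 8 arrays, with 7 above 0, 10 below and a median of -0.01. Exosc4, a core subunit, stood at 0.75, 0.74, 0.75 and 0.79 in WT 1 to WT 4 and at 0.19, 0.65, 0.27 and 0.13 in KO 1 to KO 4, a difference of -0.45 ± 0.11 (SE, limma's adjusted p = 0.117). Exosc2, an RNA-binding cap subunit, stood at 0.41, 0.40, 0.33 and 0.34 and at 2.20, 0.37, 2.04 and 2.57, 1.43 ± 0.40 (adjusted p = 0.119), with KO 2 again among the WT arrays. Exosc5 and Exosc3, core and cap subunits, gave -0.39 and -0.28 (adjusted p = 0.133 and 0.142, KO 3 left out of the second). Without KO 2, 3 of the 17 were higher and 3 lower at an adjusted p under 0.05, where 9.17% of all transcripts were higher and 11.2% lower. Exosc2, at 1.90, and Exosc4, at -0.56, were among the 6.

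Of 19 tested subunits of the Integrator, which cleaves nascent noncoding transcripts, and of the PAF1 elongation complex, 0 passed with all arrays, with 4 above 0, 15 below and a median of -0.17 beside -0.03 over all transcripts. The Integrator subunits Ints9, Ints12, Ints3 and Ints1 had the smallest p, with differences of -0.47, -0.36, -0.26 and -0.25 and adjusted p of 0.118 to 0.171 in limma. Ints9 stood at 0.65, 0.80, 0.51 and 0.80 in the WT arrays and at 0.23, 0.41, 0.36 and -0.11 in the KO arrays, without overlap. Without KO 2, 5 of the 19 were lower and 0 higher at an adjusted p under 0.05, where 11.2% of all transcripts were lower and 9.17% higher.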

How the data were processed

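The authors deposited the intensity of each spot as read by Agilent Feature Extraction (version 10.7.3.1 in the submitters' processing notes), and a log10 ratio that the deposited series value table repeats. Here the median intensity of each channel was background-corrected (limma 3.58.1, R 4.3.3, normexp, offset 50), and the log2 ratio Cy5/Cy3 was loess-normalised per array. Marked outlier spots were left out, spots of a probe were averaged, then the passing probes of a systematic name. KO and WT were compared with lmFit and eBayes, 2-sided, Benjamini-Hochberg over all 23962 tested names, threshold 0.05. The scanner files hold median and no mean signals. Of 37850 names, 21717 matched a symbol of the RefSeq table (GRCm38.p6), used for gene lists only. Sequences and neighbouring genes were not analysed here. Precision is limited by 4 arrays a group.

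The regions, gene lists and markers were chosen with earlier results of these data known. Regions named are the 8 of smallest p in each direction without overlap, up to 5 ranges of smallest p with both strands kept, up to 5 above background in one group only, the 5 largest rises and falls past the threshold without KO 2, and up to 4 genes of smallest p a list. The neighbours of named regions, the strand pairs without overlap and the regions of KO 4 were chosen after their values were seen. Alternatives changed the background correction, normalisation, channel, filter, weights, probe rule, replicate block and the arrays used. The fit was tested on simulated data. Pandas 2.3.3, numpy 2.4.6 and matplotlib 3.10.9 under Python 3.11.15 made tables and figures.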

Additional observations from a re-analysis of the deposited data

Results flagged for a closer look

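Within groups of 4 arrays, a value was listed where its gap to the nearest other array took more of the group's range than Dixon's critical value. Of 88 groups examined, 9 did so, where chance gives about 1 in 20 for independent groups not chosen by their values. Many of these groups were regions named for their values, and all share the same arrays, so the 9 are not read against that rate. The array of KO 3 stood apart among the KO arrays with 79.8% of region probes and 95.2% of regions above background in Cy3, and with median region intensities of 373 in Cy5 and 66 in Cy3. On single regions, KO 3 was lowest at -0.00358 on chr4:119967625-119978325 reverse. KO 2 was highest at 0.059 on chr6:90915489-90940052 reverse and lowest at -0.56 on chr19:5801802-5802597 reverse. WT 3 was highest of the WT arrays on that last region, at 0.066. KO 4 was highest at 2.19 on chr18:3003075-3016150 forward.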

How the results depend on the processing

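Of 805 values of the 37 named regions under the alternatives, 704 kept their direction and side of the threshold, 89 passed it and 12 reversed. With all 8 arrays, 0 regions were called in limma under every alternative except array weights (454); the fit with the replicate number as a block also called 0, and same-numbered arrays deviated together at correlations of only -0.24 to 0.11. Leaving out 1 array gave 0 to 473 calls (1 without WT 3, 473 without KO 2), and leaving out KO 2 and KO 3, an alternative chosen after seeing the data, gave 588. Separated regions higher in KO (82) became 52 with median centring, 149 with no filter (2.91% of all transcripts) and 97 to 500 without 1 array (500 without KO 2, where 13.6% of all transcripts separated upwards). Without KO 2 and KO 3 they became 806 (30.6% of regions, 22.8% of all transcripts). Those lower (198) became 449 with median centring, 398 with Cy5 alone (12.4% of all transcripts), 218 to 364 without 1 array (364 without KO 2, where 19.7% of all transcripts separated downwards) and 512 without KO 2 and KO 3 (19.4% of regions, 23.9% of all transcripts). Fewer arrays overlap less often by construction. The median difference moved to -0.10 with median centring and -0.14 with Cy5 alone, where all transcripts moved to -0.29 and -0.19; the cause was not tested. The mean share of regions above background was 51.6% in WT, but 81.5% by the scanner's significance flag, 16.0% with all spots required and 36.7% in Cy3; in KO it was 77.1%, 92.96% by the significance flag, 39.7% with all spots required and 53.2% in Cy3. Without KO 3 the last 2 were 25.9% and 39.2%. The difference of -0.13 on chr5:23195569-23218551 forward ran from -0.21 to 0.00645 without 1 array, turning sign without KO 3, and was 0.043 without KO 2 and KO 3. That of 0.01 on chr3:38320928-38341869 forward became -0.26 with normexp offset 0, -0.00345 without background subtraction, -0.41 with the scanner's ratio and with the series value table, -0.035 with median centring, -0.093 with Cy5 alone, -0.025 with scaling between arrays, and -0.024 to 0.065 without 1 array, below 0 without WT 1 (-0.00949), KO 1 (-0.017) or KO 4. Dim probes near background limit what the arrays can show for most regions.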
